A study of Mus musculus with 24 samples.

Results

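Knockdown satellites are short stretches of H3K4me3 that were listed as unique to KDM1A-knockdown cells and that lay close to, but apart from, H3K4me3 shared with wild-type cells. They were chosen from the deposited region lists by position. A satellite is a region unique to the knockdown (KD region) on autosomes 1 to 14 and 16 to 19 that touched no common region, with 2 to 5000 bp between it and the nearest common region. This rule took 4217 of the 13088 KD regions on those 18 autosomes, and of 63425 regions deposited in all. The same rule applied to wild-type-only (WT) regions took 546 of 5015, and these WT satellites serve as the contrast. Of all 58479 regions listed on the 18 autosomes, common ones included, 22.4% were KD regions and 8.58% were WT regions. Later counts are set beside the share over one-sided or common regions where that share was counted.

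The cells were leukemic splenocytes of C57BL/6 mice carrying the Eµ-TCL1A transgene, which drives the oncogene TCL1A in B cells and gives a disease like chronic lymphocytic leukemia. Both conditions carry the transgene, and they differ in KDM1A, which was wild type and untreated in one and knocked down in the other. Chromatin immunoprecipitation with sequencing used an antibody to H3K4me3, and 3 biological replicates per condition were each sequenced as 2 technical replicates, both for H3K4me3 and for input DNA (24 libraries). The lists describe 1 comparison of the conditions as a whole, without values per library, so that no read depth and no spread between animals can be given. How the knockdown was made, its depth, and the age and sex of the animals are not given in the labels.

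H3K4me3 is laid down by the COMPASS family of methyltransferases, which are drawn to unmethylated CpG-rich promoters, and it peaks on the nucleosomes beside the transcription start site of active genes. Toward the shoulders of a promoter the trimethylated form gives way to di- and monomethylated H3K4, which also mark enhancers. KDM1A (LSD1) removes methyl groups from the mono- and dimethylated forms but not from the trimethylated one, and acts in repressor complexes with CoREST and histone deacetylases. Broad H3K4me3 domains are known from genes that define the identity of a cell.

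KD satellites greatly outnumbered WT satellites. They made up 88.5% (95% Wilson interval 87.6 to 89.4%) of the 4763 satellites, while KD regions made up 72.3% (71.6 to 72.9%) of all one-sided regions on the same autosomes. Satellites were 32.2% (31.4 to 33.0%) of the KD list and 10.9% (10.1 to 11.8%) of the WT list. They held 1811 kb of KD sequence, or 26.9% of the length of the KD list, and 319.6 kb of WT sequence, or 10.3% of the WT list. The rule itself rests on the lists compared here. These shares, and the gaps, lengths and scores that follow, are therefore descriptions without a test. Their intervals reflect counting error alone and take the regions to be independent.

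Most satellites sat very near to shared H3K4me3. The gap of KD satellites had a median of 614 bp and quartiles of 153 and 1608 bp. It was at most 500 bp for 45.3% of them, at most 1000 bp for 63.0% and over 2000 bp for 19.8%. WT satellites had a median gap of 656 bp with quartiles of 131.8 and 2111.5 bp, and 26.4% of their gaps were over 2000 bp. The intervals of the medians overlapped, at 572 to 643 bp for KD and 539 to 816 bp for WT satellites. The first 250 bp were the fullest bin of both lists, and gaps became steadily rarer beyond it over the first 1500 bp. Satellites lay on either side of their common region about equally, with 49.6% (48.1 to 51.1%) of the KD and 52.0% (47.8 to 56.2%) of the WT satellites at the higher coordinate.

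**Figure D1:**
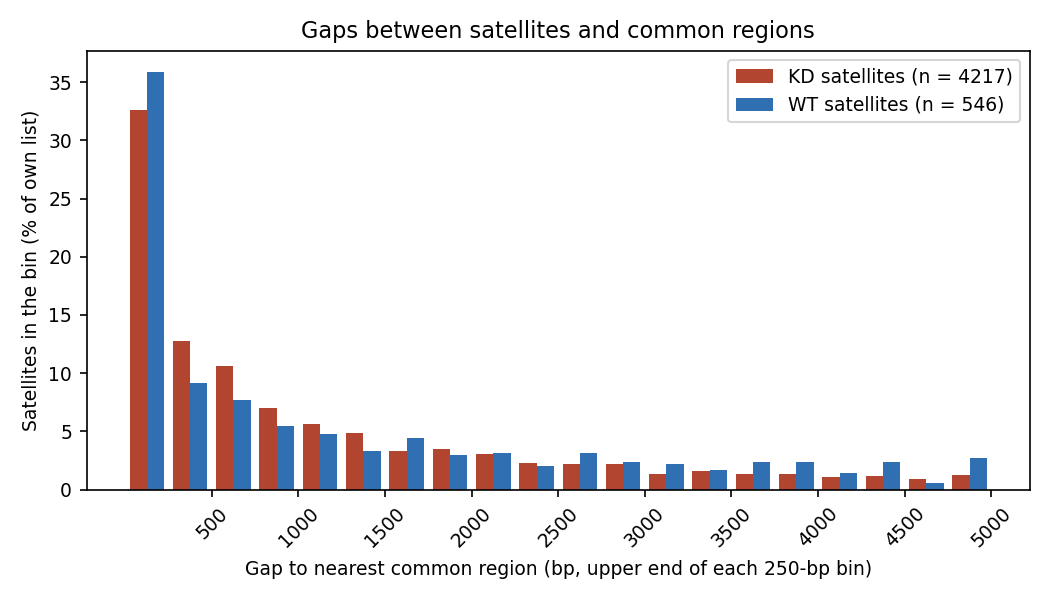
Share of each list of satellites (vertical axis, % of the own list) by the gap to the nearest common region (horizontal axis, bins of 250 bp). The bin up to 250 bp holds 32.6% of the 4217 KD satellites and 35.9% of the 546 WT satellites, and the last bin holds 1.23% and 2.75%.

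The smallest gaps are at the resolution of the lists. No region in any list is shorter than 200 bp, and regions of 1 list are never less than 101 bp apart. A gap of 199 bp or less is thus too short to hold a whole further listed region, although part of a region that overlaps the common region can reach into it. Such gaps separated 28.4% of KD and 31.5% of WT satellites from their common region. When only gaps of at least 200 bp were kept, a limit set once the data had been seen, 3020 KD and 374 WT satellites were left. Their median gaps were 1049.5 bp (999 to 1098 bp) and 1467 bp (1223 to 1653 bp), and these intervals did not overlap. With gaps of at most 1000 bp the order was the reverse, at 236 bp (223 to 252 bp) and 176.5 bp (141 to 219 bp), again without overlap.

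Regions with gaps just outside the rule were present at both of its limits. KD satellites with gaps of 2 to 11 bp numbered 168, with a median length of 315.5 bp and a median score of 4.28. The 20 KD regions with a gap of 1 bp had medians of 398.5 bp and 4.83, and the 638 KD regions that abutted a common region had medians of 339.5 bp and 5.25. At the outer limit, 91 KD satellites had gaps of 4501 to 5000 bp, and their median length was 334 bp. The 72 KD regions at 5001 to 5500 bp had a median length of 314 bp.

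The excess of KD over WT regions was largest in the satellite range. Among regions in contact with a common region, 67.2% (66.2 to 68.1%) were KD regions. The KD share was 87.4% (85.6 to 89.1%) at gaps of 2 to 199 bp. It reached 90.6% (88.4 to 92.5%) at 200 to 500 bp and 91.2% (89.0 to 92.9%) at 501 to 1000 bp. It was 89.7% (87.4 to 91.6%) at 1001 to 2000 bp and 85.3% (82.9 to 87.4%) at 2001 to 5000 bp. Farther out it was 78.5% (76.2 to 80.6%) at 5001 to 20000 bp. Beyond that, KD and WT regions were nearly equal in number, with 603 KD and 547 WT regions (52.4%, 49.5 to 55.3%) at 20001 to 100000 bp and 247 and 235 regions (51.2%, 46.8 to 55.7%) farther still.

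**Figure D2:**
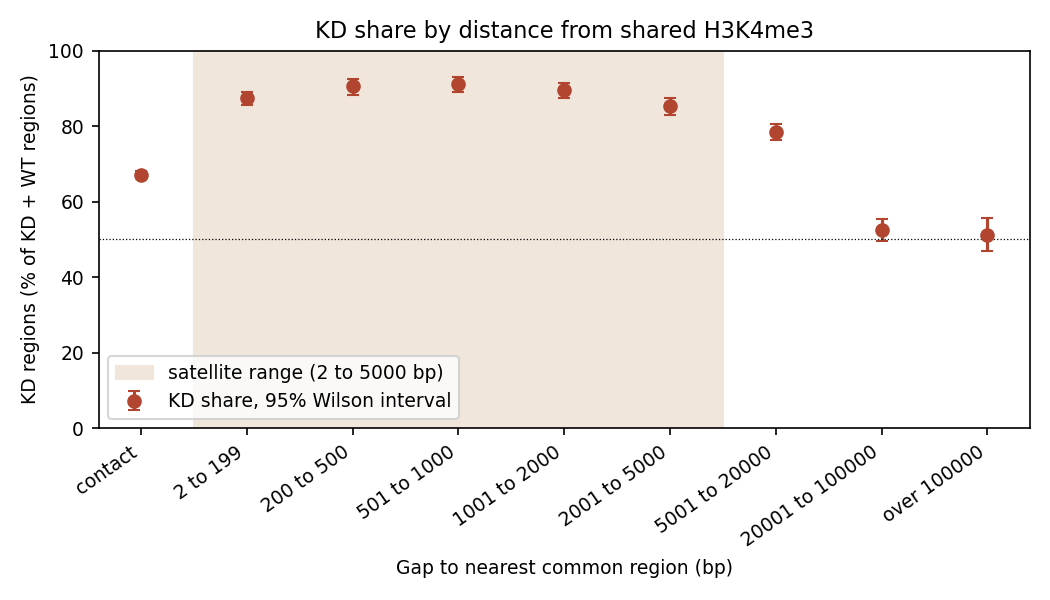
KD regions as a percentage of KD and WT regions together (vertical axis) by the gap to the nearest common region (horizontal axis, bp; classes of unequal width). Points are pooled over 18 autosomes and bars are 95% Wilson intervals. Regions with a gap of 1 bp are left out. The 5 classes in the shaded satellite range lie between 85.3 and 91.2%, above the 67.2% of regions in contact and the 52.4 and 51.2% of the most distant classes.

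KD satellites were somewhat shorter than the KD list as a whole and had a similar median score, with fewer high scores. Their median length was 315 bp (quartiles 250 and 435 bp) against 339 bp in the whole list, 80.8% of them were under 500 bp, and 52 (1.23%) were 2000 bp or longer. KD regions in contact had a median of 350 bp, and those beyond 5 kb one of 374 bp. WT satellites had a median of 327 bp (254.2 and 554 bp), also below the 423 bp of WT regions in contact and the 561 bp of those beyond 5 kb. Their upper tail was heavier, with 22 of 546 (4.03%) at 2000 bp or longer. The deposited score is the authors' own value for each region, above 3 in both one-sided lists, and the headers do not define it. Its median was 4.53 (3.92 and 5.59) in KD satellites and 4.47 in the whole KD list, and 36.7% and 35.7% of these scored at least 5. The satellite median lay between the 4.23 of KD regions in contact and the 6.30 of those beyond 5 kb. In WT satellites the median score was 4.57 (3.90 and 6.10), below the 5.28 of the whole WT list. It was also below the 5.12 of WT regions in contact and the 6.93 of those beyond 5 kb.

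The most distant satellites of both lists had the highest median scores. The median score of KD satellites was 4.30 at gaps of 2 to 199 bp, 4.41 at 501 to 1000 bp and 5.35 at 2001 to 5000 bp, and that of WT satellites was 4.52, 4.40 and 5.31. The KD share was 87.6% (86.0 to 89.1%) among satellites scoring at least 5. Among those scoring at least 10, a minimum set once the data had been seen, it was 75.1% (68.5 to 80.8%), from 142 KD and 47 WT satellites. Over all one-sided regions of the same autosomes it was 63.0% and 46.9% at these minimums. At a score of at least 10, satellites thus held more KD than WT regions, whereas the lists as a whole held more WT regions.

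Most gaps between a satellite and its common region held no other listed region, but the length of a gap limits what it can hold. Of the KD gaps, 28.4% were 199 bp or less, too short for a whole listed region. A region was counted when any part of it lay in the gap. Nothing was listed in the gap of 75.6% (74.3 to 76.9%) of KD satellites. Another KD region lay in the gap of 1023 (24.3%, 23.0 to 25.6%), and a WT region in that of 7. For 573 satellites (13.6%) the KD region in the gap touched the common region itself, so that a KD edge was followed outward by a KD satellite. For the other 450 (10.7%) it did not. Among gaps over 1000 bp, 46.0% (43.5 to 48.4%) held a KD region and 3 of 1562 held a WT region. WT satellites mirrored this, with a WT region in 138 of 546 gaps (25.3%, 21.8 to 29.1%) and a KD region in 1. No satellite of either list touched a region of the other list. Each list holds regions unique to 1 condition, and contact between the lists was not counted over all one-sided regions. How often neighbouring one-sided regions in general belonged to the same list was not counted either. Neither the absence of contact nor the predominance of the own list in the gaps is therefore read as a trait of satellites. KD satellites with a KD region in the gap had a median score of 5.08, against 4.40 for the others. Of these 1023 satellites, 718 had gaps over 1000 bp, and median scores were highest at the longest gaps. The part of the gap in this difference was not tested.

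The common regions nearest to satellites, called hosts here, differed in kind between the lists. KD satellites had 3515 distinct hosts, 8.71% (8.43 to 8.98%) of the 40376 common regions. WT satellites had 469 (1.16%, 1.06 to 1.27%), and 6 common regions were hosts of both. Hosts of KD satellites had a median length of 736 bp (interval 692 to 790 bp) with quartiles of 340 and 2136 bp. All common regions together had a median of 873 bp, with quartiles of 368.8 and 2284 bp. Hosts of WT satellites were shorter, with a median of 492 bp (455 to 546 bp) and quartiles of 326 and 1061 bp. On 15 of 18 autosomes the median was larger for KD than for WT hosts.

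The share of common regions that were KD hosts varied between 7.61 and 9.71% with their length, while the share that were WT hosts was lower in each longer class. KD hosts were 9.71% (9.24 to 10.2%) of common regions of 200 to 499 bp and 9.08% (8.24 to 9.998%) of those of at least 4000 bp, with the lowest value at 2000 to 3999 bp. WT hosts were 1.66% (1.47 to 1.89%) of the shortest class and 0.391% (0.241 to 0.633%) of the longest. Common regions of at least 4000 bp made up 10.1% of all common regions, 10.6% of KD hosts and 3.41% of WT hosts.

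A host can be a small outlying piece of a longer shared domain, so common regions within 1 kb of each other were also joined into 23565 stretches, with a median length of 2093 bp. This measure was chosen after the data were examined. The stretches of KD hosts had a median length of 2684.5 bp and those of WT hosts one of 1088.5 bp. Only 178 KD satellites (4.22%) and 26 WT satellites (4.76%) lay inside the stretch of their host, and the others flanked it. KD satellites flanked 12.3% (11.5 to 13.1%) of stretches under 1000 bp, 16.04% (15.1 to 17.1%) of those of 4000 to 7999 bp and 23.1% (20.9 to 25.4%) of those of at least 8000 bp. WT satellites flanked 3.11% (2.73 to 3.55%), 0.821% (0.608 to 1.11%) and 0.516% (0.250 to 1.06%) of the same classes. The longest shared stretches were thus the most often flanked by KD satellites and the least often by WT satellites. The KD value was 11.9% at 1000 to 1999 bp and 12.3% at 2000 to 3999 bp, so that it rose only from 4000 bp on. The WT value of the longest class rests on 7 of 1357 stretches, and its interval overlapped that of the class of 4000 to 7999 bp. The KD value was larger in the longest than in the shortest class on 17 of 18 autosomes, the exception being chromosome 16 (13.9 and 14.96%). The WT value was smaller on 17 of 18, the exception being chromosome 19 (1.47% in both). These WT comparisons rest on the same 7 flanked stretches, and most autosomes had none in the longest class.

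**Figure D3:**
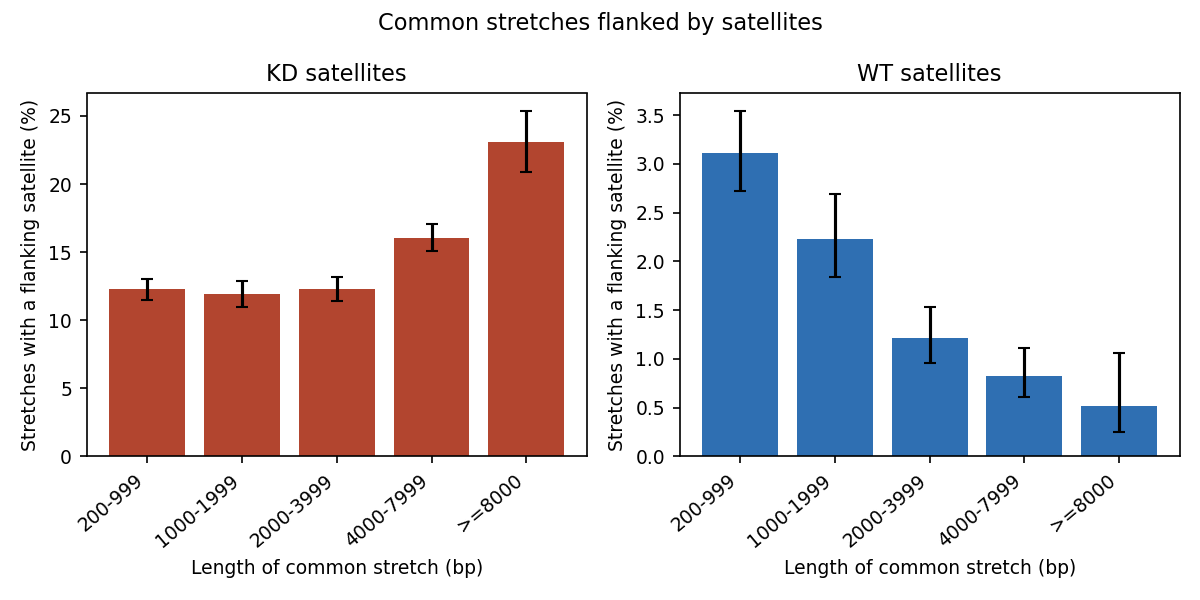
Percentage of stretches of joined common regions with at least 1 flanking KD satellite (left) or WT satellite (right), by the length of the stretch in bp. Bars are pooled over 18 autosomes, error bars are 95% Wilson intervals, and the vertical axes differ in range. KD bars go from 12.3% in the shortest class to 23.1% in the longest, and WT bars from 3.11% to 0.516%.

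Hosts were often changed in the same direction along their own edge or interior. A KD region touched 33.4% (31.9 to 34.98%) of the hosts of KD satellites, against 19.9% (19.5 to 20.3%) of all common regions. A WT region touched 4.55% (3.91 to 5.29%) of them, against 12.5% (12.2 to 12.9%) of all. For hosts of WT satellites the order was the opposite, with 36.5% (32.2 to 40.9%) touched by a WT region and 5 of 469 (1.07%) by a KD region. The score of common regions, whose definition is likewise not given, had a median of 0.73 in KD hosts and 0.66 in WT hosts, against 0.51 in all common regions.

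Most hosts had a single satellite. Of the KD hosts, 2968 (84.4%) had 1 satellite, 427 (12.1%) had 2, 92 (2.62%) had 3, 21 had 4 and 7 had 5. The mean was 1.20 per KD host and 1.16 per WT host. Hosts with 2 or more made up 15.6% (14.4 to 16.8%) of KD hosts and 12.2% (9.50 to 15.4%) of WT hosts, and their intervals overlapped. The KD value was 6.22% when satellites within 1 kb of each other were counted as 1, and 7.52% with satellites of at least 500 bp alone. As listed, these hosts carried 1249 KD satellites (29.6%) and 134 WT satellites (24.5%). When a KD host had several satellites they usually lay on 1 side, and 128 of 547 such hosts (23.4%, 20.05 to 27.1%) had them on both. Neighbouring KD satellites on 1 side of a host were a median of 449 bp apart (quartiles 218.5 and 896 bp). Hosts with several satellites had a median length of 673 bp (608 to 755 bp) and hosts with 1 a median of 757 bp (700 to 827 bp), and these intervals overlapped. Satellites on hosts with several scored somewhat higher, with a median of 4.82 (4.74 to 4.96) against 4.43 (4.39 to 4.47). Gaps were not matched between them.

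KD satellites were more often enclosed by shared H3K4me3 than WT satellites. Common regions lay within 5 kb on both sides of 1332 KD satellites (31.6%, 30.2 to 33.0%) and of 105 WT satellites (19.2%, 16.1 to 22.7%), and the KD value was the larger on 16 of 18 autosomes. The space between the flanking common regions had a median of 3046 bp for KD and 2714 bp for WT satellites. Beside this stands a difference between the hosts: no other common region lay within 5 kb of 26.4% (24.97 to 27.9%) of KD hosts, 40.1% (35.7 to 44.6%) of WT hosts and 22.4% (22.0 to 22.8%) of all common regions. Its part in the difference was not tested.

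The predominance of KD satellites was present on every autosome of the rule. KD satellites outnumbered WT satellites on 18 of 18, with a median share of 88.6% and a range from 80.2% on chromosome 2 to 94.8% on chromosome 11. Satellites were a larger part of the KD list than of the WT list on 18 of 18, at 26.7 to 35.2% against 5.56 to 14.9%. Per 100 common regions there were 7.95 KD satellites on chromosome 12 and 13.9 on chromosome 11, with a median of 10.5. WT satellites ranged from 0.660 per 100 on chromosome 16 to 1.97 on chromosome 2. Median gaps of KD satellites lay between 458 bp on chromosome 14 and 729 bp on chromosome 4.

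**Figure D4:**
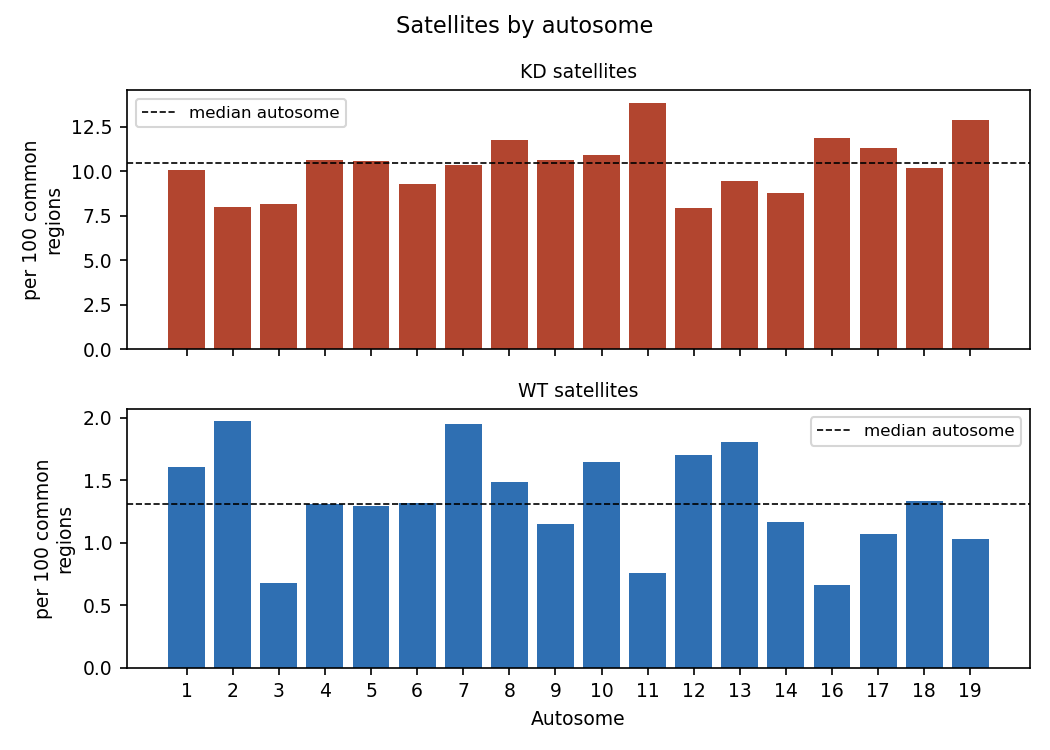
Satellites per 100 common regions on each of the 18 autosomes, for the KD list (top) and the WT list (bottom). The vertical axes differ in range, and dashed lines mark the median autosome. KD values lie between 7.95 and 13.9, above the highest WT value of 1.97.

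The 5 KD satellites with the highest scores lay on 4 chromosomes (GRCm39, 1-based positions). The highest, chr7:126365179-126368756, was 3578 bp long with a score of 59.9 and lay 2545 bp from a common region of 3994 bp. A second common region lay 4820 bp away on its other side. The next, chr4:141201092-141204161, scored 34.2, was 3070 bp long and lay 75 bp from a common region of 1639 bp. On chromosome 9, the satellite at chr9:123730506-123730787 scored 33.5 over 282 bp, and its gap of 4344 bp held another KD region. The satellite chr2:148251419-148252505 scored 32.5 and lay 215 bp from a common region of 3362 bp. The last, chr7:99470909-99473420, scored 27.8 and lay 1928 bp from a common region of 317 bp that a KD region touched. None of the 5 had a WT region in its gap or at its host. WT regions were rare there in general, lying in 7 of 4217 gaps of KD satellites and touching 4.55% of KD hosts.

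The 3 longest KD satellites did not have the highest scores. They were chr1:152411153-152418222 of 7070 bp (score 14.99, gap 1733 bp), chr8:91564219-91570355 of 6137 bp (score 9.02, gap 4471 bp) and chr1:172301456-172307112 of 5657 bp (score 16.4, gap 254 bp). Each was longer than the common region beside it, at 3011, 234 and 367 bp. Of the 5 WT satellites with the highest scores, the first was chr12:92855961-92858094 (score 65.2, gap 2248 bp) and the next chr10:83243041-83243590 (score 53.6, gap 1700 bp). That one belonged to a common region of 416 bp with 5 WT satellites. The others were chr7:115927212-115928028 (30.8), chr6:136463869-136464308 (24.6) and chr14:13059099-13067211 (23.3). The hosts of these 5 measured 241 to 1136 bp, and 4 of them had a WT region in the gap.

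Of the 7 hosts with 5 KD satellites, the 5 with the largest summed satellite length are described here. None had a WT region within 5 kb, but the share of all KD hosts or common regions with one at that distance was not counted. The absence is therefore not read as a trait of these hosts. Contact, a narrower measure, was rare in general, with a WT region touching 4.55% of all KD hosts. On chromosome 9, a common region of 1826 bp at chr9:119939280-119941105 was followed on its higher side by 5 KD satellites of 349 to 1974 bp that covered 4053 bp, at gaps of 25, 903, 1752, 2862 and 5000 bp. Their scores were 4.05, 4.25, 12.8, 10.98 and 4.55, so that the highest lay in the middle of the string. On chromosome 2, the host chr2:172241671-172244196 had 2 satellites on the lower and 3 on the higher side, with scores of 3.96 to 7.54, and 1 KD region touched it as well. The host chr1:160618231-160622155, of 3925 bp, had 5 satellites on its lower side at gaps of 481 to 3976 bp with scores of 3.71 to 5.66, and 4 KD regions touched it. The remaining hosts were short, chr2:79095743-79095969 of 227 bp and chr19:41821132-41821763 of 632 bp, each with 5 satellites on the higher side at gaps of 1577 to 4606 and 1430 to 4920 bp. The latter was also touched by 2 KD regions, and the host on chromosome 2 by none. Both had 2 other common regions within 5 kb, so that the string of satellites extended the outer end of a group of common regions.

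**Figure D5:**
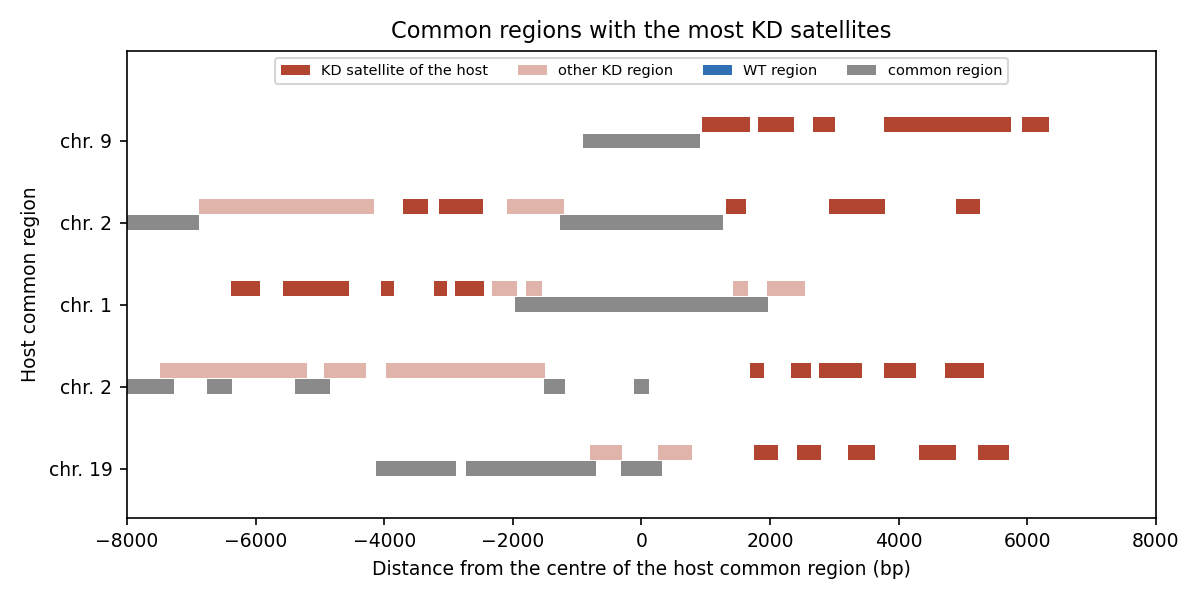
Regions listed around the 5 hosts with the most KD satellites, by distance in bp from the centre of the host; each row is 1 host, named by its chromosome. Grey bars are common regions, dark red bars the KD satellites of the host and pale red bars other KD regions. Each host has 5 satellites, on 1 side in 4 rows. No WT region falls in the windows, and how often this holds around other hosts was not counted.

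Regions were not assigned to genes or promoters, and no sequence of a satellite is shown, because the gene and promoter tables at hand are of another build than the regions. Whether a difference between the conditions in depth, enrichment or the scale of the comparison moved with the number of satellites was not tested.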

How the data were processed

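H3K4me3 ChIP-seq and input libraries of both conditions were compared by the authors as a whole. The tools were MACS2 2.2.6, SAMtools 1.6 and Bowtie2 2.2.9 on the build GRCm39, per the submitters' processing notes; settings and any pooling of replicates are not given there. Per the file headers, the 3 deposited lists hold regions unique to KD, unique to WT and common, with 1 deposited score per region whose definition is not given. No column holds values per library, and depth is unknown.

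The gap is the number of bases between a region and the nearest common region; a region that overlaps or abuts one touches it. The nearest common region was the host; 3 KD satellites were equally near to 2 of them, and 1 was kept. Shares have 95% Wilson intervals and medians have binomial order-statistic intervals. Named regions were the 5 KD and 5 WT satellites of highest score, the 3 longest KD satellites and the 5 hosts with the most KD satellites, ties broken by summed length. Members, lists and alternatives were chosen with earlier results of these data known. Python 3.11.15, numpy 2.4.6, pandas 2.3.3, scipy 1.17.1 and matplotlib 3.10.9 were used, and the code for gaps and hosts was tested on simulated data. The simulated satellites all lay on the higher side of common regions spaced far apart. Gaps on the lower side, ties and the choice between nearby hosts were therefore not covered. Gene lists were planned but not used, since no annotation of GRCm39 was at hand.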

Additional observations from a re-analysis of the deposited data

How the results depend on the processing

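KD satellites outnumbered WT satellites under every alternative run, and the KD value exceeded the WT value under each of them for the satellite share of the list, the length of the host and the share enclosed on both sides. With satellites joined, the value for the list is the ratio described below and not a share. At a score of at least 10 the intervals of the enclosed shares overlapped. The median gap was the smaller for KD satellites except with gaps of at most 1000 or 2000 bp or a score of at least 10. Among 112 values under alternatives, 43 lay inside the counting interval of the value reported, and what moved the rest was not tested. Gaps of at least 200 bp, gaps of 1 bp, a score of at least 10 and all alternatives on stretches were added after seeing the data. No paired analysis was possible because no list gives a value for any replicate, and leaving out a replicate was not possible either. Depth is unknown, so its limits are not given, and start-site distances were not run, as no annotation of the build was at hand.

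Values are given in the order KD, WT. With a score of at least 5, satellites were 33.1 and 7.98% of the lists, median gaps 1093 and 1243 bp, enclosed shares 25.8 and 15.98%, the median KD host 684 bp and KD hosts with 2 or more satellites 11.6%; stretches under 1000 bp were flanked in 5.56 and 1.54% and those of at least 8000 bp in 8.40 and 0.147%. At a minimum score of 10, KD satellites were 75.1% of satellites, which were 19.01 and 5.56% of the lists, median gaps 2252.5 and 2080 bp, enclosed shares 19.01 and 14.9%, the KD host 623 bp and hosts with 2 or more 8.46%. With lengths of at least 500 bp the KD share was 83.7%, list shares 21.9 and 7.85%, gaps 936 and 1070 bp, hosts 634 and 445 bp, enclosed shares 28.2 and 14.6% and hosts with 2 or more 7.52%. With gaps of at most 1000 bp, list shares were 20.3 and 6.34%, gaps 236 and 176.5 bp, enclosed shares 38.2 and 25.8%, the KD host 674 bp and hosts with 2 or more 6.04%. With gaps of at most 2000 bp they were 25.8 and 8.02%, 390 and 272 bp, 36.0 and 24.1%, 691 bp and 11.3%. With common regions of at least 500 bp the KD share was 91.0%, list shares 28.5 and 7.38%, gaps 992 and 1007 bp, hosts 1783 and 1099.5 bp, enclosed shares 22.3 and 12.7% and hosts with 2 or more 18.4%. With satellites within 1 kb joined, gaps were 494 and 516 bp and hosts with 2 or more 6.22%. Joined satellites numbered 37.7 and 11.5% of the joined lists. Satellites were joined only to each other, whereas the lists were joined whole, so this is a ratio and not a share. With all 19 autosomes the KD list share was 31.1%. With gaps of at least 200 bp, list shares were 23.1 and 7.46%, gaps 1049.5 and 1467 bp and enclosed shares 27.6 and 15.2%. With stretches joined within 500 bp, KD satellites flanked 20.4% of those of at least 8000 bp.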

Other observations

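Outside the autosomes of the rule, regions chosen in the same way were distributed differently. Chromosome 15 had 368 KD and 5 WT satellites, a KD share of 98.7% (95% Wilson interval 96.9 to 99.4%), or 17.6 KD satellites per 100 common regions, above the 13.9 of the highest other autosome. Its KD satellites had a median gap of 616 bp, close to the 614 bp of the other autosomes, and were 22.4% of its KD list, below the 26.7% of the lowest other autosome. Its WT satellites were 5.10% of its WT list. The X chromosome had 15 KD and 30 WT satellites, a KD share of 33.3% (21.4 to 47.9%). These were 21.4% of its KD list and 14.3% of its WT list. Both shares rest on few satellites, 15 and 30, and no interval was computed for them. The Y chromosome had 3 KD satellites and no WT satellite among 12 common regions.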
